A study of Mus musculus with 2 samples.

Results

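Genes tied to the pacemaker cells of the gut wall, as markers or as the ligand they depend on, were followed in embryonic mouse intestine. They are the receptor gene Kit, its ligand gene Kitl, the chloride channel gene Ano1, the transcription factor gene Etv1, the protein kinase gene Prkcq and the matrix gene Thbs4. They were chosen by name, and each of the 6 symbols matched a single gene among the 43346 gene identifiers of the deposited tables. The tissue was the intestine of B6NCrl embryos at embryonic day 14.5, with no mutation or treatment labelled, sequenced as total RNA in 2 libraries that form the only group. The labels describe a single intestine of a pup per library, with collection dates 2 days apart within a month (day 15 for replicate 2, day 17 for replicate 1), and also give the sex as pooled. There is no second condition, so the questions the design allows are how much of each gene the tissue held, which transcripts made it up, and how far the embryos agreed.

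Interstitial cells of Cajal are the pacemaker cells of the gut. They generate the slow electrical waves that time the contractions of the smooth muscle. Their development depends on the receptor tyrosine kinase Kit and on its ligand, which neighbouring smooth muscle and nerve cells supply. Opening of Ano1, a chloride channel gated by calcium, carries the pacemaker current, and Etv1, an Ets family factor, acts downstream of Kit in these cells. None of the genes is restricted to them. Kit is also a gene of mast cells, germ cells, melanocytes and blood progenitors, Ano1 of secretory epithelia including pancreatic acini, Prkcq of T cells and skeletal muscle, and Thbs4 of tendon and muscle matrix.

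The gene tables held 34042802 estimated counts for replicate 2 and 34504419 for replicate 1. Markers of the labelled tissue were present in both libraries, with TPM of at least 1 for 8 of 8 genes of intestinal epithelium, 8 of 8 of mesenchyme and 10 of 10 of smooth muscle. TPM is a gene's share of all transcripts in a library, corrected for length and scaled to the same total in each library. The libraries stood apart in other respects. Markers of pancreas summed to 1023 TPM in replicate 2 and 8.93 TPM in replicate 1. The X-inactivation RNA Xist had 0.0600 and 77.2 TPM in replicates 2 and 1 and the Y-linked gene Ddx3y 28.2 and 0, which goes against a pooled sex for either library.

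Several of the genes have alternative coding exons with known effects on the protein, and the transcript tables separate them. The sequences in which the main transcripts differ are printed here because the transcript shares given further on turn on them. Capitals mark the alternative bases and lower case the 18 bases that flank them in the spliced transcript, taken from GENCODE M21 transcripts on GRCm38.
Kit, last 12 bases of exon 9 of 21 (chr5:75639147-75639158, plus strand): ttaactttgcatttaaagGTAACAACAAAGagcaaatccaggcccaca
Kitl, exon 6 of 10 (chr10:100080857-100080940, plus strand): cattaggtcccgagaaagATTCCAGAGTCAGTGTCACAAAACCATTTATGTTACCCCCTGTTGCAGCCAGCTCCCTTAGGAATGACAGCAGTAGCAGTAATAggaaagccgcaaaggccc
Ano1, exon 14 of 26 in transcript Ano1-203 (chr7:144619475-144619486, minus strand): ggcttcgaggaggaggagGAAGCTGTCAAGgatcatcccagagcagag
Ano1, longer cassette exon in transcript Ano1-207 (chr7:144648575-144648640, minus strand): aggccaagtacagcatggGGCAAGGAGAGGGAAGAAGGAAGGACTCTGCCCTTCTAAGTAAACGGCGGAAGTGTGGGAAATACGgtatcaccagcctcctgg
Etv1, exon 9 of 13 in transcript Etv1-201 (chr12:38852220-38852288, plus strand): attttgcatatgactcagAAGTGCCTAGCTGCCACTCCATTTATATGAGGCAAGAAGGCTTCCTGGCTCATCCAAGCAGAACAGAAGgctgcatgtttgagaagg
Each of these segments is a multiple of 3 bases (12, 84, 12, 66 and 69), so the reading frame continues when it is left out. In every case the flanking bases are joined directly in an annotated transcript that lacks the segment.

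All 6 genes were detected, meaning TPM of at least 1 in both libraries, as were 61.3% of nuclear protein-coding genes. Since the genes were picked by name for known roles, this count is a description only. The same holds for the detection counts of the lists, which are to be read beside that share. Of the 6 genes, 5 lay within a narrow band of 23.7 to 41.3 TPM and Prkcq lay far below it. By mean TPM the order was Etv1, Ano1, Kitl, Kit, Thbs4 and Prkcq. Of the 5 pairs of neighbours in this order only Thbs4 and Prkcq were separate, with both libraries and both deposited intervals of Thbs4 above those of Prkcq. The deposited interval is the authors' range for a gene's TPM in a library and covers estimation error only. Etv1 was higher than 69.8% of detected protein-coding genes, Ano1 than 65.4%, Kitl than 63.9%, Kit than 63.4%, Thbs4 than 60.5% and Prkcq than 7.01%. The tissue is a mixture, so few cells with much of a transcript and many cells with little cannot be told apart.

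**Figure D1:**
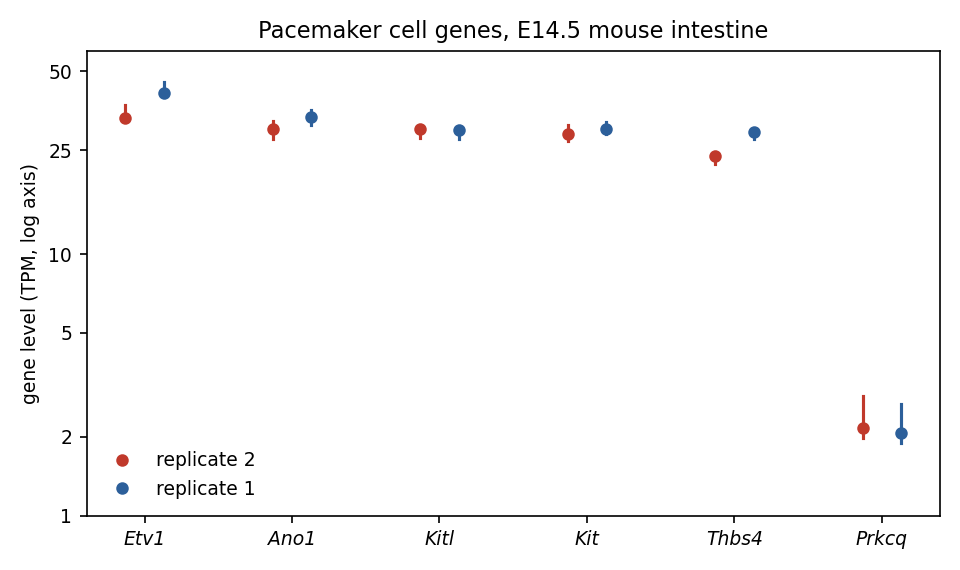
Level of each gene in TPM on a log axis, with replicate 2 left of replicate 1 for each gene; points are the deposited TPM and bars the deposited interval of each library. Etv1, Ano1, Kitl, Kit and Thbs4 lie between 23.7 and 41.3 TPM, and Prkcq lies at 2.17 and 2.07.

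Kit (ENSMUSG00000005672.8, chr5:75574916-75656722, plus strand), the receptor on which pacemaker cells depend, had 28.8 TPM in replicate 2 and 30.2 TPM in replicate 1. The deposited intervals were 27.0 to 31.1 and 28.9 to 31.9 TPM and overlapped. These values came from 3087 and 3486 estimated counts. The mean was 29.5 ± 1.01 TPM (SD, n = 2).

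Kit was one of 5 type III receptor tyrosine kinases in the tables, which share an extracellular part of immunoglobulin domains and a split kinase domain. Pdgfra, the receptor of a second interstitial cell type of the gut wall, averaged 42.6 ± 6.19 TPM (here and in what follows, a value after ± is the SD, n = 2) and was above Kit in both libraries. Pdgfrb, a receptor of vascular mural cells and mesenchyme, was at 31.6 ± 0.170 TPM, also above Kit in both libraries. The macrophage receptor gene Csf1r lay lower at 16.7 ± 1.00 TPM. Flt3, a receptor of blood progenitors, was under the detection level at 0.16 and 0.12 TPM in replicates 2 and 1.

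Kit transcripts were divided mainly between a pair of coding models. Kit-201, which encodes 979 residues and carries the 12 alternative bases, took 54.3% of the gene's TPM in replicate 2 and 48.6% in replicate 1. Kit-204, which lacks them and encodes 975 residues, took 33.3% and 47.7%. The forms are usually called GNNK plus and GNNK minus after the residues beside the membrane that the bases encode, and in cultured cells they differ in signalling strength. Among transcripts that span the site, the form with the 12 bases therefore made up 62.0% in replicate 2 and 50.4% in replicate 1, or 56.2 ± 8.20% (SD, n = 2).

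The split between these forms is less certain than the level of the gene. The effective lengths in the files correspond to reads of 100 bases, and the models differ at the exon 9 site and by 39 bases at their start. At the estimated abundances, about 40.8 reads over the insert and 22.3 over the joined ends are expected in replicate 2, and 37.8 and 33.2 in replicate 1. In replicate 2 the deposited intervals of Kit-201, 11.5 to 18.5 TPM, and Kit-204, 6.04 to 12.9 TPM, overlapped. They also did in replicate 1, at 10.0 to 17.6 TPM for Kit-201 and 10.7 to 18.1 TPM for Kit-204. The intervals of Kit-204 in the 2 libraries overlapped as well, at 6.04 to 12.9 TPM in replicate 2 and 10.7 to 18.1 TPM in replicate 1.

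The model Kit-205, an annotated retained intron of 842 bases, held 7.24% and 3.67% in replicates 2 and 1. The 3 other models, all retained introns, each stayed at or under 2.30%. Together the retained introns held 12.3% of Kit TPM in replicate 2 and 3.67% in replicate 1. They are short models with few estimated counts, 36.4 and 19.1 for Kit-205 in replicates 2 and 1. The gene's TPM in each library includes this part.

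Kitl (ENSMUSG00000019966.13, chr10:100015630-100100416, plus strand) encodes the ligand of Kit, also called stem cell factor or steel factor. It had 30.1 TPM in replicate 2 and 29.8 TPM in replicate 1, from 3345 and 3326 estimated counts. The mean of 30.0 ± 0.219 TPM (SD, n = 2) lay within the range of Kit's own libraries. The ratio of ligand to receptor TPM was 1.05 in replicate 2 and 0.987 in replicate 1.

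Kitl-202, which contains exon 6 and encodes 273 residues, took 81.5% of Kitl TPM in replicate 2 and 83.7% in replicate 1. Kitl-201, which skips the exon and encodes 245 residues, took 17.4% and 11.6%. Exon 6 holds the main site at which the ligand is cut from the cell surface, so the longer form is readily released and the shorter one stays mostly on the membrane. Among transcripts that span the exon, 82.4% in replicate 2 and 87.9% in replicate 1 contained it, or 85.2 ± 3.89% (SD, n = 2). The deposited intervals of the forms did not overlap in either library. In replicate 2 they were 23.1 to 24.9 TPM for Kitl-202 and 3.31 to 6.82 TPM for Kitl-201, and in replicate 1 they were 23.5 to 25.2 and 1.88 to 4.95 TPM. The models also differ in length, 5645 against 1260 bases. Reads over the bases that Kitl-202 alone carries count for that model in the estimate whether or not their transcript held exon 6, so the share is conditional on these annotated ends.

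Of 7 measured ligand genes for this receptor class, 6 were detected and Kitl was second. Pdgfa, made by gut epithelium for mesenchymal receptors, led at 57.1 ± 5.23 TPM. Pdgfc followed Kitl at 19.2 ± 1.80, the macrophage growth factor gene Csf1 was at 10.5 ± 0.156, Pdgfd at 6.42 ± 0.601 and Pdgfb at 5.45 ± 0.580 TPM. The alternative Csf1r ligand gene Il34 had 1.20 TPM in replicate 2 and 0.91 in replicate 1.

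Genes that carry the signal of Kit inside the cell were detected for 41 of 42 members, with a median of 19.8 TPM against 4.88 for all nuclear protein-coding genes and 18.4 for detected ones. These genes serve many receptors. Map2k2, a kinase gene of the ERK cascade, was among the highest at 139.9 ± 5.46 TPM. The exception was Pik3cb, a catalytic subunit of phosphoinositide kinase, at 0.68 and 0.75 TPM in replicates 2 and 1. All 6 genes on a list of ERK feedback and target genes were detected, led by Spry2 at 38.7 ± 0.750, Dusp6 at 32.5 ± 1.93 and Spry1 at 14.5 ± 0.0283 TPM.

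Ano1 (ENSMUSG00000031075.13, chr7:144588549-144751974, minus strand) encodes the calcium-gated chloride channel of the pacemaker current. It had 30.0 TPM in replicate 2 and 33.5 TPM in replicate 1, from 2478 and 2982 estimated counts. The deposited intervals, 27.7 to 32.4 and 31.3 to 35.6 TPM, overlapped. Pancreas markers, as given above, summed to 1023 TPM in replicate 2 and 8.93 TPM in replicate 1. Markers of intestinal epithelium summed to 1951 and 1801 TPM. The part of pancreas and epithelium in the level of Ano1 was not tested. An antisense gene, Gm44930, lies opposite Ano1 in the later annotation and has no entry in these tables.

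The anoctamin family has 10 members in mouse, some of them chloride channels and others lipid scramblases. Of these, 4 were detected, all with a mean above 10 TPM, beside 61.3% of nuclear protein-coding genes. No other member passed 1 TPM in both libraries. Ano6, a widely expressed scramblase, was highest at 42.5 ± 1.97 TPM and above Ano1 in both libraries. Ano10 was at 26.8 ± 1.32 and Ano9 at 10.6 ± 0.424 TPM. The remaining 6, Ano2, Ano3, Ano4, Ano5, Ano7 and Ano8, had means from 0.145 TPM for Ano5 to 1.00 TPM for Ano8. Ano2, the other well known calcium-gated chloride channel, had 0.39 TPM in replicate 2 and 0.61 in replicate 1.

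The Ano1 model Ano1-203, with 1017 codons, led with 62.7% of the gene's TPM in replicate 2 and 71.7% in replicate 1. It was at 18.8 TPM (deposited interval 16.2 to 20.0) in replicate 2 and at 24.0 TPM (20.6 to 24.9) in replicate 1, with no overlap. Ano1-201, which lacks the 12-base exon, took 10.2% and 11.1%. Among transcripts that span this micro-exon, known to alter the calcium and voltage dependence of the channel, 83.5% in replicate 2 and 85.5% in replicate 1 contained it, or 84.5 ± 1.41% (SD, n = 2). Most of the TPM without it was Ano1-201, at 3.05 of 3.71 TPM in replicate 2 and 3.71 of 4.07 TPM in replicate 1. That model has 956 codons, so it differs from Ano1-203 by more than the micro-exon. The share is therefore conditional on these annotated models.

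The longer cassette exon of 66 bases is carried by a single partial model, Ano1-207, which had 2.24 TPM (1.20 to 3.55) in replicate 2 and 0.760 TPM (0.259 to 1.48) in replicate 1. It stood in 9.05% and 2.63% of transcripts that span it. A low share here is conditional on the annotation, because no full-length model with this exon was among the quantified transcripts. Ano1-205, another partial model, took 11.2% and 6.89% in replicates 2 and 1, from only 58.2 and 39.4 estimated counts. The retained intron Ano1-206 took 6.17% and 7.05%, from 15.2 and 19.2 counts, and the 3 other models stayed at or under 2.21% each.

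Of 29 channel and calcium store genes with roles in pacemaking, 22 were detected, and the median of the list was 5.81 TPM. The gap junction genes Gja1 and Gjc1, whose products couple neighbouring cells, were at 42.2 ± 0.948 and 41.4 ± 5.75 TPM. The calcium pump gene of the endoplasmic reticulum, Atp2a2, was at 39.2 ± 1.94 TPM. Of the 29, 7 were under the detection level, including 3 of the 4 Hcn channel genes. Hcn4 had 0.18 TPM in replicate 2 and 0.21 in replicate 1, whereas Hcn3 had 1.41 and 1.96. All 3 genes of the inositol trisphosphate receptor, which releases the calcium that opens Ano1, were detected, at 6.50 ± 0.0636 TPM for Itpr1, 5.81 ± 0.290 for Itpr2 and 12.1 ± 1.21 for Itpr3.

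Of 11 genes of signalling between enteric nerves and the cells that answer them, 9 were detected, and the list had a median of 3.81 TPM. The nitric oxide receptor subunit genes were highest, Gucy1b1 with 59.1 TPM in replicate 2 and 72.4 TPM in replicate 1, and Gucy1a1 with 44.5 and 50.6 TPM. Chrm2, a muscarinic acetylcholine receptor gene, followed with 23.1 and 28.9 TPM. All 3 were lower in replicate 2.

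Etv1 (ENSMUSG00000004151.12, chr12:38779380-38870484, plus strand) had the highest mean of the 6 genes, 37.2 ± 5.73 TPM (SD, n = 2). It had 33.2 TPM in replicate 2 and 41.3 TPM in replicate 1, from 2407 and 2793 estimated counts. The deposited intervals, 32.4 to 37.2 and 39.9 to 45.4 TPM, did not overlap. Etv1 exceeded the other members of its Ets subfamily in both libraries. Etv5 was at 11.9 ± 1.63 TPM and Etv4 at 4.57 ± 0.396 TPM.

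Etv1 had the most divided transcripts, 13 models of which 5 passed 5% in either library. Etv1-203, which lacks the 69-base exon and encodes 454 residues, took 24.1% in replicate 2 and 33.4% in replicate 1. Its deposited intervals, 3.99 to 9.41 TPM in replicate 2 and 10.3 to 15.4 TPM in replicate 1, did not overlap. Etv1-201, with 477 residues, took 25.2% and 21.6%. Its level was nearly equal in the libraries, 8.37 TPM in replicate 2 and 8.90 TPM in replicate 1, so Etv1-203, at 8.00 and 13.8 TPM, held most of the difference of the gene. By transcripts that span the 69-base exon, 75.6% in replicate 2 and 66.0% in replicate 1 contained it, or 70.8 ± 6.79% (SD, n = 2), counting among them the retained intron model Etv1-212. Etv1-201 was quantified as a model of 4307 bases, against 6576 in the later annotation, and Etv1-203 has 2032. The split between the models and the exon share are conditional on these annotated ends.

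The Etv1 models start in several first exons. Of the 12 models with known coordinates, 8 begin upstream of base 38783470 of chromosome 12 and held 71.6% of their TPM in replicate 2 and 77.9% in replicate 1. The other 4 begin at or after it, and include Etv1-202 with 437 residues and Etv1-210 with 419, which have a different N terminus from Etv1-201. Etv1-202 took 14.9% and 14.2%, and Etv1-210 took 13.5% and 7.21%, in replicates 2 and 1. The retained intron model Etv1-212 held 20.3% and 17.1%. One of the 13 models is absent from the later annotation and was at 0 TPM in both libraries.

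Prkcq (ENSMUSG00000026778.9, chr2:11172108-11301222, plus strand) encodes protein kinase C theta, a stain used for tumours of the pacemaker cell lineage. It had 2.17 TPM in replicate 2 and 2.07 TPM in replicate 1, from 172 and 166 estimated counts. The deposited intervals, 1.98 to 2.86 and 1.89 to 2.67 TPM, overlapped. Kit exceeded it by 13.3-fold in replicate 2 and 14.6-fold in replicate 1.

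Among the 8 detected protein kinase C genes, Prkcq was the lowest in both libraries. The atypical isoform gene Prkci led at 39.2 ± 2.29 TPM, ahead of Prkcd at 32.6 ± 2.28 and Prkcz at 19.2 ± 1.41. Prkca was at 14.2 ± 0.813 and Prkcb at 10.7 ± 1.20 TPM. Prkce at 6.26 ± 0.297 and Prkch at 5.98 ± 0.127 TPM did not separate from each other. The coding model Prkcq-201 held 89.9% of the gene's TPM in replicate 2 and 96.0% in replicate 1, and 75.3% on average by the deposited posterior mean, which spreads low counts over more models. The retained intron Prkcq-203 took 5.84% and 0.860%, and the 4 other models stayed at or under 4.28% each.

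Thbs4 (ENSMUSG00000021702.7, chr13:92751590-92794818, minus strand) encodes thrombospondin 4, a glycoprotein secreted into the matrix. It had 23.7 TPM in replicate 2 and 29.3 TPM in replicate 1, from 1723 and 2107 estimated counts. The deposited intervals, 22.2 to 24.6 and 27.5 to 30.2 TPM, did not overlap. All of its TPM was in the coding model Thbs4-201 in both libraries, and the retained intron Thbs4-202 was at 0. Thbs2 was the highest of 5 thrombospondin genes at 44.7 ± 2.23 TPM, above Thbs4 in both libraries. Thbs1 followed Thbs4 at 19.1 ± 0.262 TPM and Thbs3 was at 15.4 ± 0.0424 TPM. Comp, the cartilage and tendon member closest to Thbs4, was under the detection level at 0.55 TPM in replicate 2 and 0.35 in replicate 1.

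**Figure D2:**
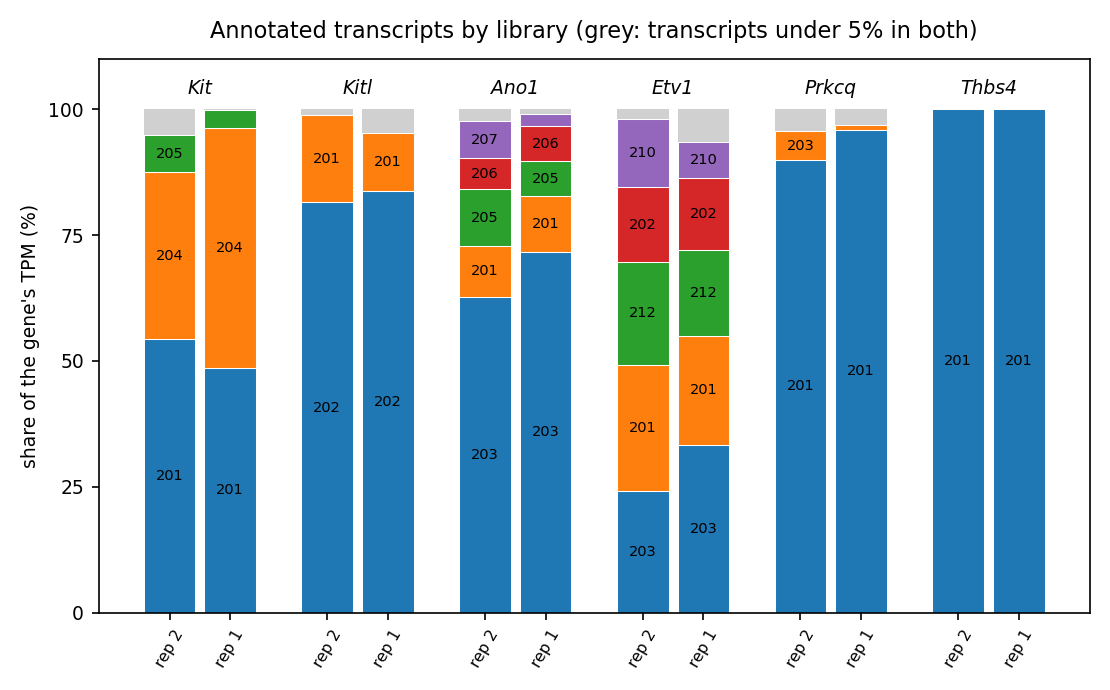
Share of each annotated transcript in its gene's TPM in percent, with replicate 2 left of replicate 1; numbers are the transcript suffixes and grey holds the transcripts under 5% in both libraries. Kitl, Prkcq and Thbs4 are led by a single coding transcript, Kit is divided between 201 and 204, and Etv1 between 5 models.

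**Figure D3:**
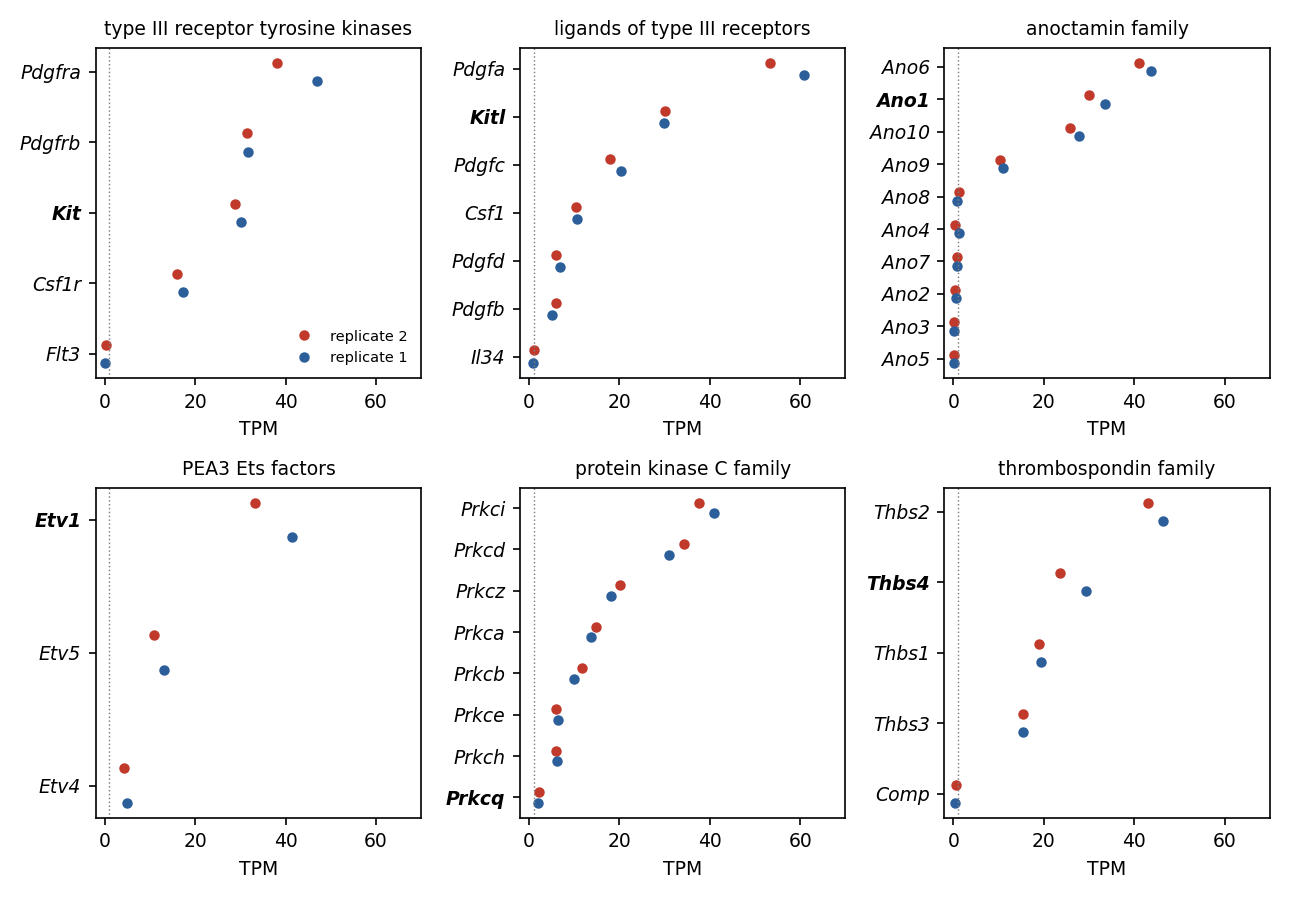
TPM of measured members of 6 gene families or groups in replicate 2 (red, upper point) and replicate 1 (blue, lower point), with the 6 pacemaker cell genes in bold and the detection level of 1 TPM dotted. Etv1 leads its subfamily in both libraries, Kitl, Ano1 and Thbs4 stand next to the top of theirs, and Prkcq is the lowest detected gene of its family in both libraries.

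Markers of other cells in which Kit, Prkcq or Thbs4 are known were measured beside these genes. No such list was set beside Etv1, and which cells held its transcripts was not tested. Of 10 mast cell genes 1 was detected, the protease gene Cpa3 at 1.67 TPM in replicate 2 and 1.70 TPM in replicate 1, and the list summed to 4.91 and 4.62 TPM. The receptor gene Fcer1a was the only one of the 10 with 0 counts in both libraries. After Cpa3 came Hdc at 1.24 and 0.91 TPM and Cma1 at 0.74 and 0.88 TPM in replicates 2 and 1. Of 7 germ cell genes 2 were detected, Nanos3 at 1.90 ± 0.113 and Dnd1 at 1.36 ± 0.0990 TPM, with a sum of 4.18 and 3.84 TPM, and Dppa3 had 0 counts in both.

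No melanocyte gene was detected in both libraries. The list summed to 2.25 TPM in replicate 2 and 2.22 TPM in replicate 1. Its highest gene by mean was Mitf at 0.82 and 1.06 TPM, and only the pigment enzyme gene Tyrp1 had 0 counts in both. Of 8 blood progenitor genes 5 were detected, headed by Myb at 4.90 ± 0.0283, Spi1 at 4.79 ± 0.827 and Ptprc at 4.04 ± 0.106 TPM, and summed to 20.3 and 18.0 TPM. The part of the cells of these 4 lists in the level of Kit was not tested.

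Of 8 T cell genes only the kinase gene Lck was detected, at 6.33 ± 0.134 TPM. The list summed to 8.31 TPM in replicate 2 and 7.79 TPM in replicate 1. Of its genes only Cd3d and Cd8a had 0 counts in both. After Lck came Cd3g at 0.88 and 0.67 TPM and Zap70 at 0.52 and 0.37 TPM in replicates 2 and 1. Of 8 skeletal muscle genes 2 were detected, Mylpf at 7.96 ± 0.962 and Tnnt3 at 1.48 ± 0.523 TPM, with a sum of 13.2 and 11.0 TPM. The muscle regulator genes Myod1 and Myog were at 0 TPM in replicate 2 and at 0.05 and 0.12 TPM in replicate 1. The part of T cells and skeletal muscle in the level of Prkcq was not tested.

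All 4 tendon genes were detected, Fmod at 7.28 ± 1.27, Scx at 6.50 ± 0.141, Mkx at 3.26 ± 0.339 and Tnmd at 2.00 ± 0.0849 TPM, and they summed to 17.7 TPM in replicate 2 and 20.3 TPM in replicate 1. Their part in the level of Thbs4 was not tested. Genes of the second interstitial cell type were detected for 4 of 4 members, with P2ry1, a purine receptor, at 10.7 ± 0.919 and the potassium channel gene Kcnn3 at 4.42 ± 0.509 TPM after Pdgfra. Enteric neuron and crest genes were detected for 7 of 7, led by Gap43 at 84.2 ± 4.09 TPM.

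**Figure D4:**
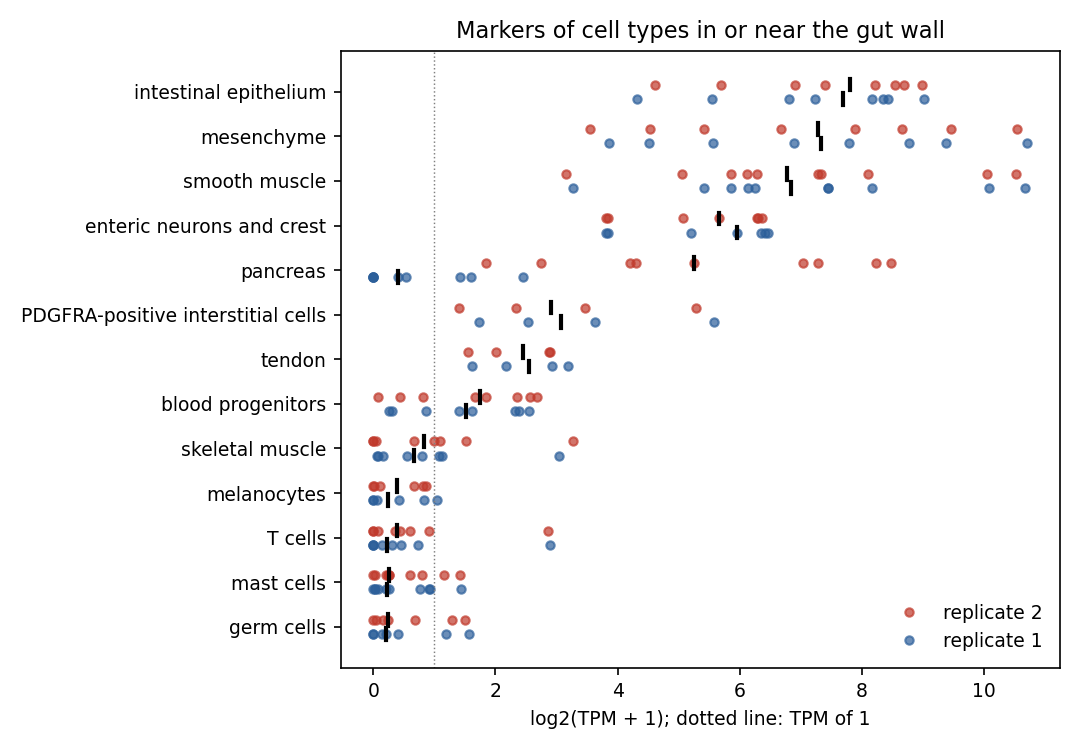
log2(TPM + 1) of each marker gene in 13 cell type lists, replicate 2 in red above replicate 1 in blue, with black bars at each list's median and a dotted line at 1 TPM. Mast cell, germ cell, T cell, melanocyte and skeletal muscle medians lie left of the line in both libraries, and the pancreas list lies far to the right in replicate 2 only.

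No gene of the 6 differed between the embryos by as much as 1 in log2(TPM + 1). A gene was called different when its mean was at least 5 TPM, the libraries lay 1 or more apart in log2(TPM + 1), and the deposited intervals were apart too, which 0.495% of 11324 genes met and none of the 5 genes at this level did. The difference in log2(TPM + 1), replicate 2 minus replicate 1, was -0.31 for Etv1, -0.30 for Thbs4, -0.16 for Ano1, -0.07 for Kit, 0.05 for Prkcq and 0.01 for Kitl. The median over the 11324 genes was -0.05, with a robust SD of 0.149. For Etv1, 12.4% of these genes lay farther from that median in TPM, and for Thbs4 13.6%. Counts scaled by TMM or DESeq2 size factors lack the length correction of TPM, and the single factor of a library shifts all genes alike. On them the order changed, with -0.25 for Thbs4, -0.23 for Ano1, -0.18 for Etv1, -0.14 for Kit, 0.04 for Kitl and 0.09 for Prkcq. On counts scaled by spike-ins all 6 were below 0, with -0.38 for Thbs4, -0.36 for Ano1, -0.31 for Etv1, -0.27 for Kit, -0.09 for Kitl and -0.04 for Prkcq. The cause of these differences between the embryos was not tested.

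Intervals alone did not overlap for 2 of the 5 genes, Etv1 and Thbs4, beside 25.2% of the 11324 genes. Replicate 2 was lower for 4 of the 5, beside 62.7% of all genes. Each embryo gave a single library, so no test between them is possible, and embryo, sex and collection day cannot be told apart. Of the 23 lists of families, pathways and cell type markers, pancreas was the only one with called genes, 7 of its 7 genes at this level, all higher in replicate 2 with a median difference of 5.44. At the same level, 5 of 5 nerve signalling genes (median -0.28), 8 of 10 smooth muscle genes (median -0.09), 5 of 8 mesenchyme genes (median -0.14) and 1 of 8 epithelial genes (median 0.12) were lower in replicate 2. The part of these cell types in the differences of the 6 genes was not tested.

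Of 16 transcripts of these 5 genes that reached 5% of their gene in either library, 1 moved by 10 points or more, Kit-204 by -14.4, beside 10.8% of 24010 such transcripts of all genes. The median shift was 4.01 points for the 16 and 3.04 for all.

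**Figure D5:**
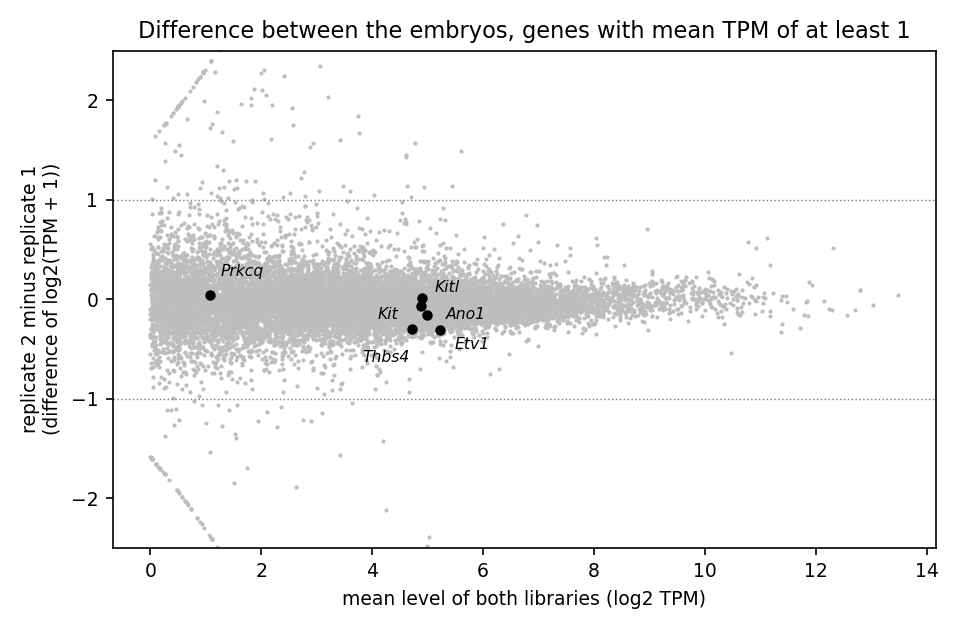
Difference of log2(TPM + 1), replicate 2 minus replicate 1, against the mean level of each gene in log2 TPM, for genes with mean TPM of at least 1; grey points beyond 2.5 either way fall outside the axis and dotted lines mark 1 and -1. The 6 named genes lie between -0.31 and 0.05, inside the cloud of all genes.

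The protein-coding genes nearest to each gene by level in the 2 libraries, measured as the Euclidean distance of log2(TPM + 1), were Dcaf17 and Cog8 for Kit, Slc28a2 and Map7d1 for Kitl, and Ifi27 and Pspc1 for Ano1. They were Akr1e1 and Ift22 for Etv1, Itpripl2 and Helz2 for Prkcq, and Tgs1 and Msh3 for Thbs4. The distances were at most 0.0189. With only 2 libraries such likeness is common: 58 genes lay within 0.05 of Kit and 14 within 0.05 of Thbs4.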

How the data were processed

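The genome build is mm10 and the annotation GENCODE M4, as the notes beside the deposited files record. For strand use, and for the program that quantified each library separately, nothing is given in the sources used here. The deposited tables hold expected counts, TPM and FPKM for genes and for transcripts, and the authors add for each transcript its percent share of the gene. The bounds of each TPM interval, also deposited by the authors, are taken here as scores, since their confidence level is not stated and they surround a posterior mean.

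Symbols, coordinates and transcript structures came from GENCODE M21 on GRCm38, the assembly of mm10. Of 43346 gene identifiers 42462 matched, and 34 of 37 matched transcripts of the 6 genes had the same length in both annotations. Spike-ins took 10.4% and 9.77% of TPM in replicates 2 and 1. The share of a coding segment was the TPM of transcripts that contain it over that of transcripts that span it.

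The genes and 23 lists with 226 entries were chosen with earlier results of these data known. Named genes were the 6 genes, their transcripts of at least 5%, all members of their families, the 3 highest of each list, and the 2 nearest genes by level. Other list members, such as those at 0, Pik3cb, Hcn3, Hcn4 and the Itpr genes, were named after their values were seen. Some genes under this rule are not reported here. With 1 group of 2 libraries there was no test. Alternatives were other thresholds, pseudocounts, estimates and scalings (python 3.11.15, edgeR 4.0.16, DESeq2 1.42.0 on rounded expected counts). The call of a difference between libraries was tried on simulated counts, with intervals computed from those counts in place of deposited ones. The segment share was tried on a small constructed example. The rules for detection, order and transcript shares were not tried in this way.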

Additional observations from a re-analysis of the deposited data

How the results depend on the processing

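No paired analysis was possible because there is only 1 group. Rescaling TPM over nuclear protein-coding genes raised the means to 48.8 TPM for Etv1, 41.6 for Ano1, 39.3 for Kitl, 38.6 for Kit, 34.7 for Thbs4 and 2.78 for Prkcq. By posterior mean TPM, Kitl was at 29.4, Prkcq at 2.35 and the Ano1 micro-exon share at 83.0%. In 1 library alone, 2 to 3 of the 5 neighbours in the order were separate, against 1 with both. Without a filter on low values 116 genes differed between the embryos, against 56. Counts scaled by spike-ins, without the length correction of TPM, had a median difference over all genes of -0.13 on the log2 scale. All 6 genes were then below 0. Counts scaled by TMM or DESeq2 had a median of 0.00, with 4 of the 6 below 0. Among 151 alternatives 134 stayed within the spread between libraries, or within 1.5 times for counts. With n = 2, a level or share from 1 library always lies within the SD, so leaving out a library could not move it. These alternatives are counted among the 134, which therefore overstates the stability. For levels, 8 of 24 alternatives moved beyond the SD, and the 24 again include the levels from 1 library, which could not move. The 8 were the rescaled levels of all 6 genes and the posterior means of Kitl and Prkcq. Depth limits Prkcq most, with fewer than 200 counts in either library.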
